A study of Mus musculus with 16 samples.

Results

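The autophagy and lysosome genes described here were Ulk1, Becn1, Map1lc3a, Map1lc3b, Gabarapl1, Sqstm1, Bnip3, Tfeb, Lamp2 and Ctsl, which were found by symbol in the count and FPKM tables of gastrocnemius RNA. All 10 genes were present among the 35415 genes listed, and all 10 were among the 14749 genes with enough counts to be tested. None of the 10 genes passed the test in any of the 7 comparisons made, and every interval of a fold change between groups lay within 1.5-fold in both directions. Among 167 tested genes of the wider autophagy and lysosome pathway, only Foxo1 and Foxo3, which encode transcription factors, passed the test in edgeR. Both were higher in resting mice with a tumor than in controls, but 0 pathway genes passed there when any 1 of 3 control mice (C1, C2, C4) or 2 tumor-bearing mice (T1, T3) was left out. DESeq2 called 4 of 167 there (2.40%, against 2.81% of all genes it tested).

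The gastrocnemius of 16 male wild-type BALB/c mice, 8 weeks old at purchase, was sequenced as polyA RNA, with 4 mice in each of 4 groups. Control mice (C group) carried no tumor and did not run, exercise mice (E group) carried no tumor and ran, tumor-bearing mice (T group) carried CT26 tumors and did not run, and tumor-bearing plus exercise mice (TE group) carried CT26 tumors and ran. CT26 is a colon carcinoma cell line that was derived from BALB/c mice and was injected under the skin of the hind limb in the T and TE groups. The C and E groups were anesthetized in the same way and received saline at that site, and mice that did not run spent their sessions on a treadmill at rest. Each run lasted 60 min at a speed of 14 m/min, and runs were made on 6 days a week for 4 weeks from the day after injection. The tumor grew at the limb and not in the colon, and the leg from which the sequenced muscle was taken is not given in the sources used here. The replicates of a group are separate mice and carry numbers from 1 to 4, so that T4 is the mouse with replicate number 4 in the T group.

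Autophagy delivers cytoplasm, protein aggregates and worn mitochondria to the lysosome. A kinase complex built on ULK1 and a lipid kinase complex built on Beclin 1 start a double membrane, small proteins of the ATG8 family are attached to it, cargo receptors bind these proteins, and the closed vesicle fuses with a lysosome whose hydrolases degrade the content. In skeletal muscle this route works beside the proteasome, and FoxO factors and TFEB are known to drive transcription of many of its genes. The levels given here are of RNA and do not measure the flow of cargo through the pathway.

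Library totals ranged from 35628211 to 37635741 counts, and the 10 genes had between 1567 and 26696 counts in a library, so counting error was small beside the spread between mice. All 8 muscle fiber markers were detected in every library. Levels in single mice are given in CPM (counts scaled to library size with TMM factors). The library of T4 stood apart in Myh3, an embryonic myosin gene (71.5 CPM, against 1.36 to 7.60 CPM in the other 15 libraries), and had the highest sums of macrophage and neutrophil markers (219 and 46.1 CPM). The library of TE4 had the highest sum of B and T cell markers (63.1 CPM). In muscle RNA, fewer cells of a type and less RNA per cell cannot be told apart.

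Levels are compared between genes in FPKM, which accounts for gene length, as means over the 16 libraries. Map1lc3a (136 FPKM) and Bnip3 (134 FPKM) were the most abundant, followed by Sqstm1 (115 FPKM), Map1lc3b (71.0 FPKM) and Gabarapl1 (46.9 FPKM). The lysosomal genes Ctsl (31.4 FPKM) and Lamp2 (16.7 FPKM) and the initiation genes Becn1 (21.0 FPKM) and Ulk1 (11.5 FPKM) were lower, and Tfeb was lowest at 7.13 FPKM. Each of the 10 genes lay above the median of the tested genes, 2.85 FPKM, and the lowest of them still exceeded 69.7% of the tested genes. The ratio of the highest to the lowest group mean of a gene ran from 1.03 for Sqstm1 to 1.18 for Ulk1. Within groups, 9 of the 10 genes varied less than the median tested gene, whose coefficient of variation was 13.8%. Their coefficients ran from 5.43% for Tfeb to 12.4% for Ctsl, and that of Map1lc3a was slightly above the median.

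**Figure D1:**
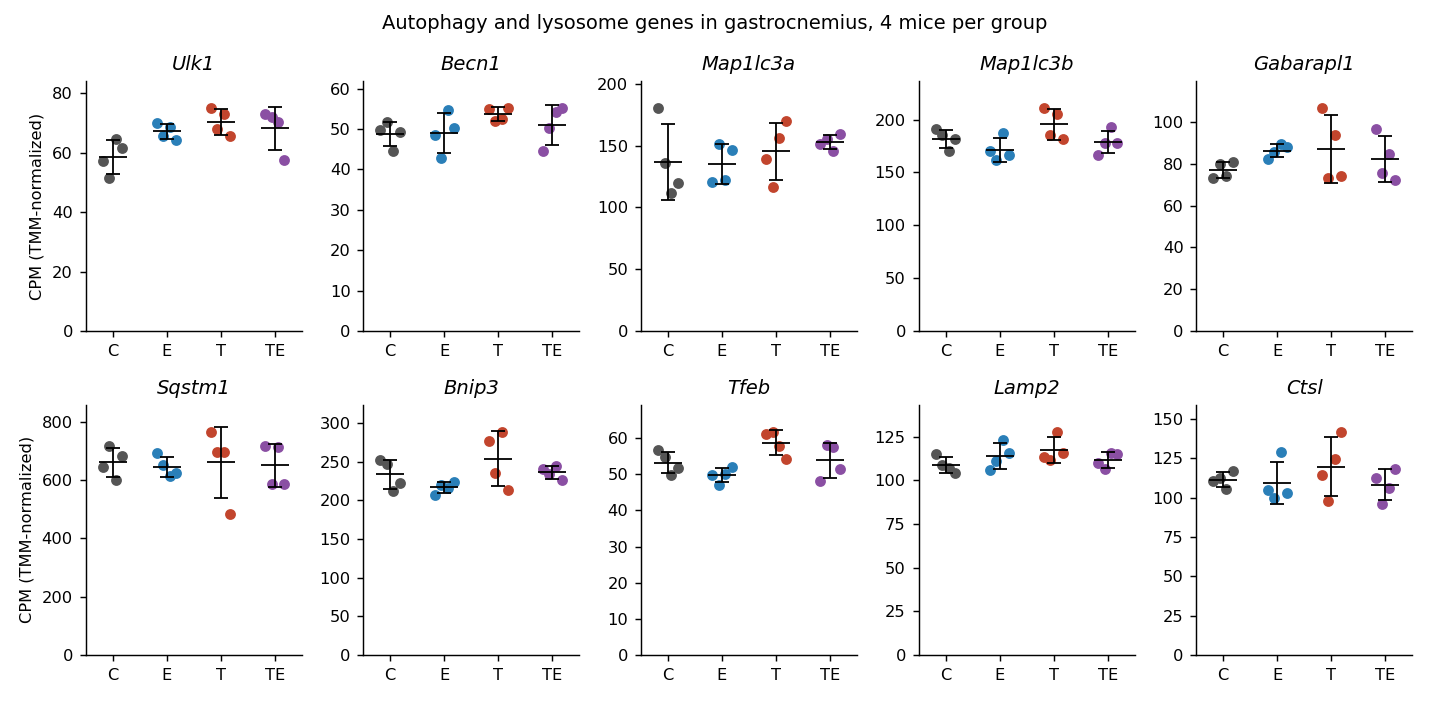
Level of each of the 10 genes in CPM with TMM factors (y axis, from 0) in the C, E, T and TE groups (x axis). Each point is 1 mouse, and the bars give the mean and SD of 4 mice. Ulk1 lies lowest in the C group, and T4 has the lowest Sqstm1 at 484 CPM.

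Most of these genes have close relatives, and the share of each family's summed FPKM that a gene supplied shows which copy the muscle used at the RNA level. Of the ATG8 family, Map1lc3a supplied 30.1%, Gabarap 28.6%, Map1lc3b 15.8%, Gabarapl2 15.1% and Gabarapl1 10.4%. The family sum was 447 ± 30.4 FPKM in the C group, 442 ± 10.9 in the E group, 463 ± 34.6 in the T group and 453 ± 14.1 in the TE group (SD, n = 4 in each). These sums differed by less than the SDs of the C and T groups, but the E and T sums differed by more than the SDs of the E and TE groups.

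The kinase genes Ulk1 and Ulk2 were nearly equal, with Ulk1 at 52.8% of their sum. Bnip3 supplied 87.5% of the sum of Bnip3 and Bnip3l, both receptors for mitochondria, and Sqstm1 supplied 85.2% of the sum of Sqstm1 and Nbr1, both receptors for ubiquitin-tagged cargo. Among the factors of the Tfeb family, Tfeb supplied 59.6%, Tfe3 27.5% and Mitf 12.9%. The lysosomal genes were minor members of their families. Lamp2 supplied 6.16% beside Lamp1 at 93.8%, and Ctsl supplied 5.41% of the sum of 11 cathepsin genes, of which Ctsd held 66.4% and Ctsb 14.1%.

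**Figure D2:**
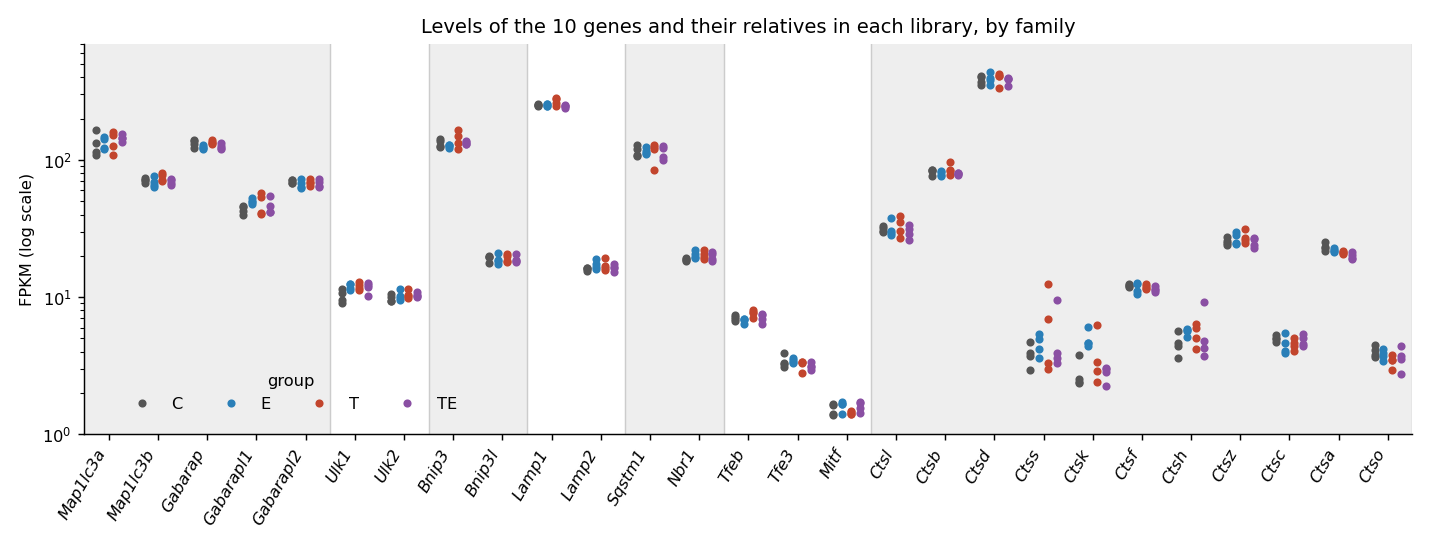
FPKM of the 10 genes and their relatives (y axis, log scale) in each of 16 libraries, with genes on the x axis grouped into families by the shading and 1 point per mouse colored by group. Ctsd and Lamp1 lie highest, and the 4 groups lie over each other in nearly every gene.

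The initiation genes were Ulk1, the kinase that starts autophagy, and Becn1, a subunit of the lipid kinase complex. Ulk1 lies on chromosome 5 of GRCm39 at 110931496 to 110957995 (minus strand, 28 exons in the canonical transcript). Its level was 57.1, 51.4, 64.6 and 61.6 CPM in the C group, 70.0, 65.6, 68.7 and 64.4 in the E group, 75.1, 67.9, 73.0 and 65.8 in the T group, and 72.9, 72.2, 70.3 and 57.5 in the TE group. Every T mouse lay above every C mouse, 3 of the 4 E mice did as well, and TE4 lay within the C range. The group means were 58.7 ± 5.76 CPM in C, 67.2 ± 2.62 in E, 68.2 ± 7.22 in TE and 70.4 ± 4.35 in T (SD, n = 4), and only the step from C to E exceeded the larger SD of its neighbors.

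Becn1 lies on chromosome 11 at 101176769 to 101193122 (minus strand, 12 exons). It measured 49.7, 51.7, 44.4 and 49.3 CPM in the C group, 48.4, 42.8, 54.7 and 50.3 in the E group, 55.0, 51.9, 52.4 and 55.2 in the T group, and 44.5, 50.1, 54.2 and 55.2 in the TE group. The T mice lay just above the C mice in CPM, with the closest pair at 51.9 and 51.7, whereas the E and TE mice spanned both.

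The ATG8 genes encode the proteins that are joined to the growing membrane. Map1lc3b, on chromosome 8 at 122317100 to 122325499 (plus strand, 4 exons), measured 191, 185, 170.1 and 182 CPM in C mice, 170.4, 161, 187 and 167 in E mice, 211, 185, 205 and 181 in T mice, and 167, 178, 193 and 178 in TE mice. T1 and T3 were the highest of the 16, and each pair of groups overlapped. Map1lc3a, on chromosome 2 at 155118217 to 155119998 (plus strand, 4 exons), ranged from 112 to 180.4 CPM, and both the lowest and the highest library were C mice.

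Gabarapl1, on chromosome 6 at 129509725 to 129520544 (plus strand, 4 exons), measured 73.2, 80.0, 74.2 and 80.9 CPM in C mice, 82.4, 85.6, 89.3 and 87.8 in E mice, 107, 73.0, 93.7 and 74.4 in T mice, and 96.6, 75.8, 84.7 and 72.3 in TE mice. The E mice lay above all C mice, and the T mice split into 2 that were higher than every E mouse and 2 that were lower.

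The cargo receptors were Sqstm1 (p62), which binds ubiquitin-tagged proteins, and Bnip3, which marks mitochondria. Sqstm1, on chromosome 11 at 50089572 to 50107684 (minus strand, 8 exons), measured 645, 715, 600.1 and 682 CPM in C mice, 691, 649.5, 614 and 622 in E mice, 766, 694, 696 and 484 in T mice, and 717, 585, 713 and 585 in TE mice. The T group held both the highest and the lowest library. Bnip3, on chromosome 7 at 138490690 to 138511253 (minus strand, 6 exons), measured 251, 247, 212 and 222 CPM in C mice, 207, 219, 216 and 224 in E mice, 277, 235, 289 and 214 in T mice, and 240.4, 234, 244 and 226 in TE mice. The TE mice lay just above the E mice, and the T mice covered the ranges of all other groups but for the lowest values.

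Tfeb encodes a transcription factor for lysosomal and autophagy genes and lies on chromosome 17 at 48047837 to 48103348 (plus strand, 9 exons). It measured 56.6, 54.7, 49.9 and 51.8 CPM in C mice, 49.9, 47.1, 50.2 and 51.9 in E mice, 61.1, 61.8, 57.9 and 54.2 in T mice, and 48.1, 58.1, 57.6 and 51.6 in TE mice. When the 4 group means were put in order, the steps from T (58.8 ± 3.48 CPM) to TE (53.9 ± 4.86) and from C (53.3 ± 2.99) to E (49.8 ± 1.98) exceeded the larger SD of the groups beside them (n = 4). Over all 10 genes, 3 of 30 such steps did, the third being that of Ulk1.

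The lysosomal genes were Lamp2, which encodes a membrane protein needed for fusion and for chaperone-mediated autophagy, and Ctsl, which encodes the cysteine protease cathepsin L. Lamp2, on chromosome X at 37488520 to 37545340 (minus strand, 9 exons), ranged from 104 to 128 CPM with overlapping groups. Ctsl, on chromosome 13 at 64507151 to 64518704 (minus strand, 8 exons), measured 110.4, 112, 106 and 117 CPM in C mice, 105, 100.1, 129 and 103 in E mice, 114, 98.0, 125 and 142 in T mice, and 112, 95.8, 106 and 119 in TE mice. Its highest level was in T4, in which Sqstm1 was lowest.

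Some of these genes share ground with others. Among genes that the count table also lists, Becn1 overlaps Cntd1, Map1lc3b overlaps Zcchc14, Gabarapl1 overlaps 1700101I11Rik, and Sqstm1 overlaps Mrnip and Mgat4b, each on the opposite strand. Since the strand setting of the counting is not given in the sources used here, reads in the shared stretches could belong to either gene. In the annotation used for positions, Gabarapl1 and Ctsl each also overlap a predicted gene on their own strand (Gm44243 and Gm49230), and Bnip3 and Ctsl overlap others on the opposite strand, none of them listed in the count table.

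For T mice against C mice, which shows what the tumor did in resting mice, 0 of the 10 genes passed the test, in a comparison in which 0.678% of all tested genes did (edgeR's quasi-likelihood test, Benjamini-Hochberg adjusted p under 0.05). DESeq2 and limma-voom also called 0 of the 10. Ulk1 was the only one of them with an unadjusted p under 0.05, against 14.2% of all tested genes. Its log2 fold change was 0.26 ± 0.0829 (SE), with an adjusted p of 0.155, and leaving out single libraries moved the change between 0.20 and 0.31. The log2 fold change was above 0 for 9 of the 10 genes, with a median of 0.12, while 49.7% of all tested genes were above 0 and their median was -0.00. Of the 8 muscle fiber markers, 6 but not all were also above 0, with a median of 0.11, and their part in the levels of the 10 genes was not tested. Of the 10 genes, 9 were above 0 under each of the 9 other settings and 8 to 10 with single libraries left out, but the genes are not independent of each other. Sqstm1 was the exception at -0.00. In CPM, 2 of the 10 genes (Ulk1 and Becn1) did not overlap between the groups, against 6.86% of all tested genes.

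The values of several genes rested on T4 in this comparison. Without that library the log2 fold change was 0.12 for Sqstm1 and 0.01 for Ctsl, against -0.00 and 0.11 with it. It was 0.00 for Map1lc3a without T4, against 0.09 with it, and 0.19 for Bnip3, against 0.12. Without T4, the number of the 10 genes with an unadjusted p under 0.05 rose from 1 to 4 (Ulk1, Gabarapl1, Bnip3 and Tfeb), where 13.6% of all genes tested in that fit had such a p, with 0 passing the adjusted test (edgeR). That number was 3 without C1 (12.5% of all genes in that fit), and 2 without T2 (16.1%) or TE1 (13.9%).

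For TE mice against T mice, which shows what running did in tumor-bearing mice, 0 of the 10 genes passed the test, as did 0% of all 14749 tested genes (edgeR). None had an unadjusted p under 0.05, against 5.88% of all tested genes, and DESeq2 and limma-voom called 0 of the 10. The unadjusted count was 2 without T4 (Map1lc3b and Bnip3, both lower), where 5.77% of all genes in that fit had such a p, and 1 without T2 (6.45%) or TE3 (6.96%). The log2 fold changes lay between -0.15 for Ctsl and 0.07 for Map1lc3a, with 9 of the 10 below 0 and a median of -0.08, where 49.5% of all tested genes were below 0. With other settings or single libraries left out, 1 to 3 of the 10 were above 0, and the median lay between -0.11 (without T4) and -0.03 (without T3). Without T4 the change was -0.05 for Ctsl, 0.16 for Map1lc3a, and -0.14 for Sqstm1, which stood at -0.02 with it. Without TE4 it was 0.03 for both Sqstm1 and Ulk1. The groups overlapped in CPM for all 10 genes, and 2.58% of all tested genes did not overlap. This comparison shares the T mice with the one above, with the opposite sign, so values that are high in T mice enter both.

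For E mice against C mice, which shows running without a tumor, 0 of the 10 genes passed the test, against 0.0881% of all tested genes (edgeR), and DESeq2 and limma-voom called 0. Ulk1 was again the only gene with an unadjusted p under 0.05, against 14.2% of all tested genes, at a log2 fold change of 0.20 ± 0.0829 (SE) and an adjusted p of 0.307. That count was 0 without C1, C2, E1 or E3, where 10.1% (without C1) to 14.4% (without E1) of all genes had such a p. The comparison shares the C mice with the T and C comparison, and the C mice were the lowest in Ulk1. The changes were above 0 for 4 of the 10 genes, against 50.6% of all tested genes, with a median of -0.02, and for 3 to 7 genes under the alternatives. Gabarapl1 did not overlap between the groups in CPM, with a log2 fold change of 0.16 ± 0.109 (SE) and an adjusted p of 0.52 in edgeR, where 9.08% of all tested genes did not overlap. In the fit of only E and C mice, 2 of the 10 genes had an unadjusted p under 0.05 (16.6% of all genes in that fit), and Gabarapl1 had the smaller adjusted p, 0.215 in edgeR.

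For TE mice against E mice, which shows the tumor in running mice, 0 of the 10 genes passed the test, against 0.231% of all tested genes (edgeR), with 0 at an unadjusted p under 0.05, where 9.23% of all tested genes stood. That count was 1 without TE1 (Tfeb), where 9.41% of all genes in that fit had such a p. It was also 1 in the fit of only TE and E mice (Bnip3, against 11% of all genes in that fit). DESeq2 and limma-voom called 0 here too. The changes ran from -0.07 for Gabarapl1 to 0.18 for Map1lc3a, and 7 of 10 were above 0, against 50.8% of all tested genes (5 to 8 under the alternatives). Bnip3 did not overlap between the groups in CPM, against 6.62% of all tested genes, and its log2 fold change was 0.12 ± 0.0839 (SE, adjusted p = 0.694 in edgeR).

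**Figure D3:**
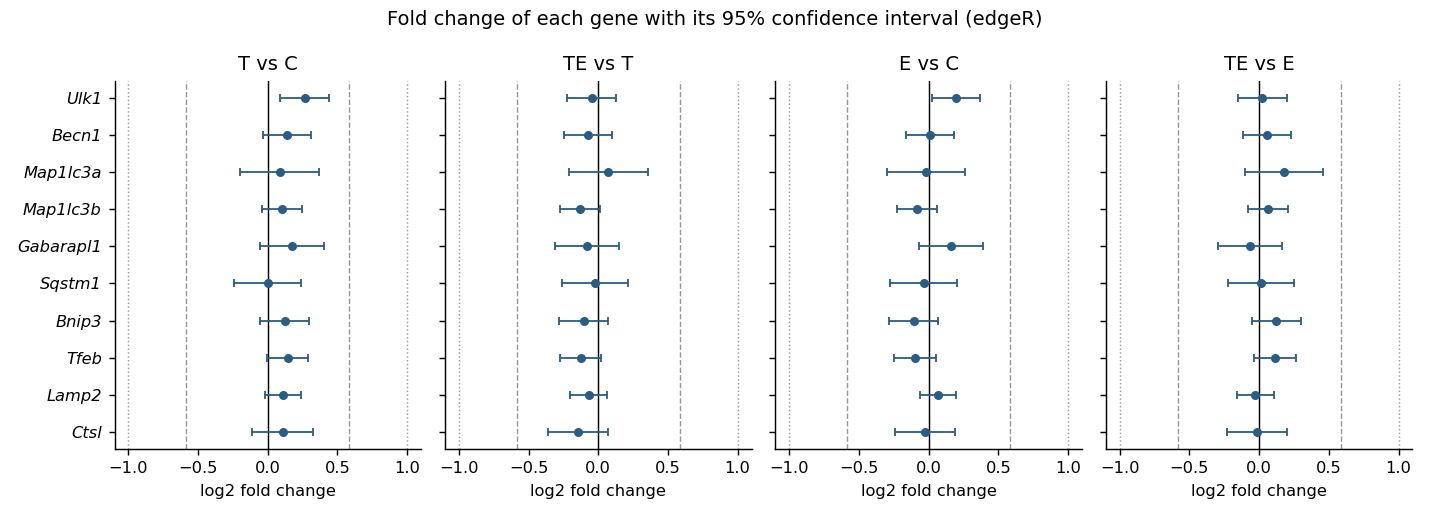
Log2 fold change (x axis) of each of the 10 genes (y axis) in the 4 comparisons between groups, with 95% confidence intervals from the edgeR fit. The solid line is at 0, the dashed lines are at 1.5-fold and the dotted lines at 2-fold in each direction, and all 40 intervals lie inside the dashed lines.

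The intervals state how large a change these data leave room for. Of 40 fold changes (10 genes in 4 comparisons), 40 had a 95% interval inside 1.5-fold in both directions. The bound farthest from 0 was a log2 fold change of 0.46, or 1.37-fold, for Map1lc3a in TE against E mice. The largest estimate was that of Ulk1 in T against C mice, and 2 of the 40 intervals, both of Ulk1, did not contain 0. These intervals were not adjusted for the number of genes.

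Averaging over running states, the tumor effect used all 16 mice and set T and TE mice against C and E mice. None of the 10 genes passed the test, against 1.36% of all tested genes (edgeR), and 2 had an unadjusted p under 0.05, against 14.2% of all tested genes. These were Tfeb, with a log2 fold change of 0.13 ± 0.0499 (SE, adjusted p = 0.247), and Ulk1, with 0.14 ± 0.0586 (SE, adjusted p = 0.272). For Ulk1 the change was 0.18 with an adjusted p of 0.105 (edgeR) without TE4. All 10 changes were above 0, with a median of 0.09, where 50.2% of all tested genes were above 0, and 8 to 10 were above 0 with single libraries left out. On the log2(FPKM + 1) scale 9 were above 0 with a median of 0.05, and the change of Tfeb was 0.08. Of the 8 muscle fiber markers, 7 were above 0 with a median of 0.12, and 0 passed the adjusted test (edgeR, 4 at an unadjusted p under 0.05). Their summed level was 112290 to 126501 CPM in C mice, 108296 to 116275 in E mice, 119100 to 131981 in T mice and 118405 to 130916 in TE mice.

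The effect of running over both tumor states passed the test for 0 of the 10 genes, against 0.00678% of all tested genes (edgeR). Map1lc3b (log2 fold change -0.11 ± 0.0481, SE, adjusted p = 0.438) and Tfeb (-0.11 ± 0.0499, SE, adjusted p = 0.436) had an unadjusted p under 0.05 with lower values in running mice, where 10.8% of all tested genes had such a p in either direction. For the interaction of tumor and running, which asks whether the tumor effect differed between resting and running mice, 0 of the 10 genes passed, as did 0% of all tested genes (edgeR), and 0 had an unadjusted p under 0.05, against 9.21% of all tested genes. Ulk1 came nearest, at -0.24 ± 0.117 (SE, adjusted p = 0.546), and stood at -0.16 without TE4 (adjusted p = 0.714 in edgeR). The unadjusted count for the interaction was 1 with the replicate block, the robust fit and both FPKM scales. It was 1 without C3, C4 or T4, and 2 without TE1 (9.03% of all genes in that fit). Where it was 1, 8% (without C4) to 9.89% (without C3) of all genes had such a p. DESeq2 and limma-voom called 0 of the 10 genes in all 3 of these comparisons, and the smallest adjusted p of any of the 10 genes in any comparison and setting was 0.0841, for Ulk1 in the T and C comparison by DESeq2.

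The rest of the pathway was described from 8 lists that follow its steps, with 168 genes in the tables and 167 tested. For T mice against C mice, 2 of 167 passed the test (1.20%, against 0.678% of all tested genes), both higher, and 92 of 167 changes were above 0. Both belonged to the 19 regulators of autophagy and lysosome genes, of which 15 were above 0 with a median log2 fold change of 0.14. The other lists had 0 genes past the test, with medians of 0.06 over 20 genes of initiation and membrane supply, 0.01 over 13 genes of ATG8 conjugation, 0.07 over 17 cargo receptors and mitophagy genes, 0.02 over 14 genes of fusion with the lysosome, -0.05 over 24 lysosomal membrane proteins, -0.00 over 17 genes of the proton pump and -0.00 over 43 lysosomal hydrolases. At an unadjusted p under 0.05 there were 21 of the 167 genes (12.6%, against 14.2% of all tested genes), 19 of them higher, where 1214 of the 2093 such genes among all tested genes were higher.

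Foxo1 encodes a transcription factor that is held out of the nucleus by insulin and Akt signaling. It measured 22.9, 23.3, 27.7 and 25.2 CPM in C mice, 25.9, 33.5, 29.7 and 28.9 in E mice, 44.8, 29.8, 41.8 and 40.4 in T mice, and 31.4, 35.3, 33.0 and 43.4 in TE mice. All T and TE mice lay above all C mice, whereas T2, TE1 and TE3 lay within the E range. In T against C mice the log2 fold change was 0.66 ± 0.123 (SE, adjusted p = 0.0195 in edgeR), or 1.58-fold.

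Foxo3 encodes a related factor that is known to drive Map1lc3b, Gabarapl1 and Bnip3 in wasting muscle. Its level was 30.4, 29.7, 31.1 and 29.9 CPM in C mice, 29.6, 33.1, 36.3 and 34.4 in E mice, 44.5, 36.7, 49.3 and 37.0 in T mice, and 33.9, 33.5, 38.9 and 39.5 in TE mice. The T mice lay above all C and all E mice. The log2 fold change between T and C was 0.47 ± 0.0944 (SE, adjusted p = 0.0335 in edgeR), or 1.38-fold.

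For the tumor effect over both running states, 2 of 167 pathway genes passed the test (1.20%, against 1.36% of all tested genes), again Foxo1 (0.47 ± 0.0869, SE, adjusted p = 0.00948 in edgeR) and Foxo3 (0.30 ± 0.0667, SE, adjusted p = 0.0315 in edgeR). Neither reached the 2-fold change that the study asks of a differentially expressed gene. The T and C calls were lost without some single mice, while the log2 fold changes stayed between 0.59 and 0.77 for Foxo1 and between 0.38 and 0.52 for Foxo3. That of Foxo1 was lost without C1, C2, C4, T1 or T3, with adjusted p-values in edgeR up to 0.0815, and that of Foxo3 without C1, C2, C3, C4, T1 or T3, up to 0.118. Over both running states, Foxo1 passed under all 24 alternatives run and Foxo3 under 12 of 24, with adjusted p-values in edgeR up to 0.114 where it did not. Sums of macrophage markers were 72.5 to 138 CPM in C mice, 79.1 to 144 in E mice, 96.1 to 219 in T mice and 94.2 to 185 in TE mice, and those of neutrophil markers were 0.907 to 3.99, 1.21 to 4.51, 8.32 to 46.1 and 10.9 to 19.7 CPM. Sums of erythroid markers were 223 to 326 CPM in C mice, 238 to 348 in E mice, 471 to 524 in T mice and 553 to 784 in TE mice. Schwann cell markers summed to 445 to 994 CPM in C mice, 355 to 864 in E mice, 308 to 631 in T mice and 311 to 449 in TE mice. Over both running states all 5 of them had a log2 fold change below 0 (median -0.50, 0 past the adjusted test in edgeR and 5 at an unadjusted p under 0.05). Of 5 endothelial markers, 2 passed as lower in tumor-bearing mice, but the 5 did not all go that way. Pecam1 was not lower, at 129 to 157 CPM in C, 168 to 197 in E, 155 to 246 in T and 143 to 224 in TE mice. Endothelial markers summed to 498 to 623 CPM in C, 621 to 675 in E, 488 to 668 in T and 462 to 604 in TE mice. All 5 erythroid, all 5 Schwann cell, all 5 endothelial and all 9 macrophage markers were detected in every library, 3 of 8 neutrophil markers were, and the part of these cells in the levels of Foxo1 and Foxo3 was not tested.

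**Figure D4:**
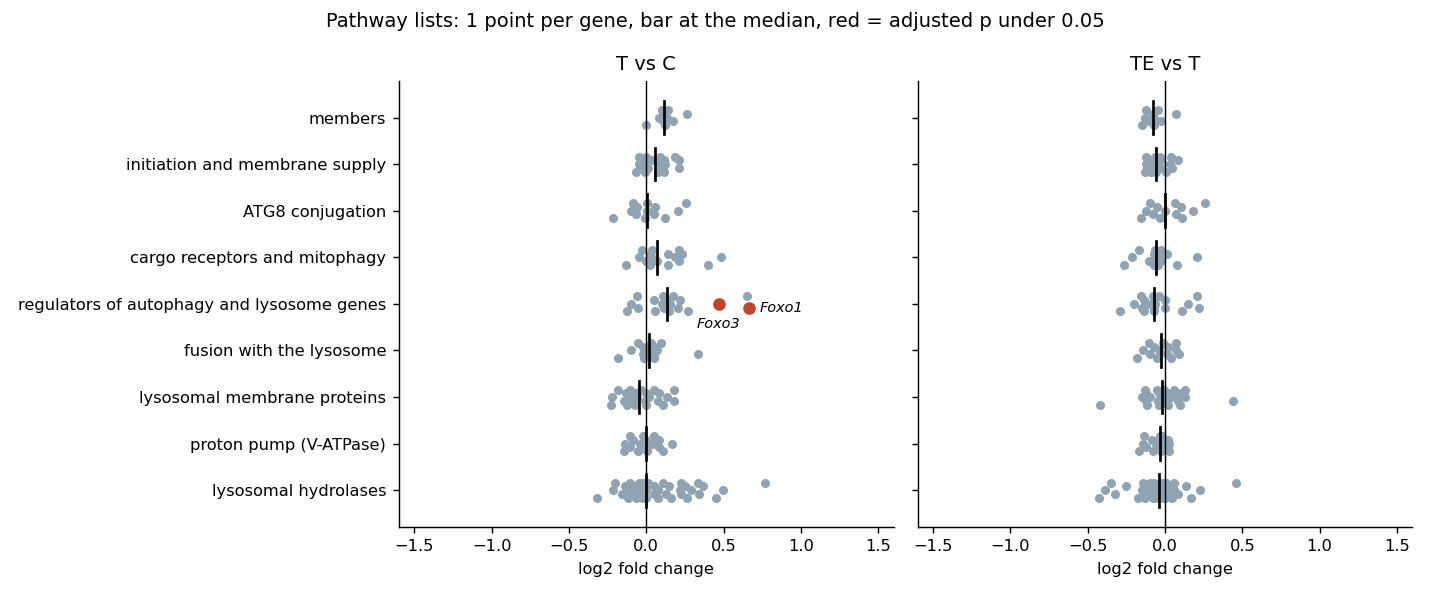
Log2 fold change (x axis) of each tested gene of the 10 genes (top row, labelled members) and of 8 pathway lists (y axis) for T against C mice and TE against T mice. Each point is a gene, the black bar is the list's median and red points passed the test, which were Foxo1 and Foxo3 in the left panel and 0 genes in the right.

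In the other comparisons 0 of the 167 pathway genes passed the test in edgeR. At an unadjusted p under 0.05 there were 8 (4.79%, against 5.88% of all tested genes) in the TE and T comparison, 16 (9.58%, against 14.2%) in E and C, and 9 (5.39%, against 9.23%) in TE and E. There were 16 (9.58%, against 10.8%) in the effect of running and 15 (8.98%, against 9.21%) in the interaction, so that each share was below that of all tested genes. DESeq2 called 0 in TE and T, E and C, the effect of running and the interaction, and 2 in TE and E (1.20%, against 1.19% of all genes it tested). In TE against T mice, 115 of 167 changes were below 0, where 49.5% of all tested genes were, with a median of -0.04, and all 8 genes at an unadjusted p under 0.05 were lower, where 444 of the 867 such genes among all tested genes were lower. The lysosomal protease gene Lgmn (-0.32 ± 0.109, SE, adjusted p = 0.724), Lamp1 (-0.13 ± 0.0522, SE, adjusted p = 0.81) and the hexosaminidase gene Hexa (-0.17 ± 0.0691, SE, adjusted p = 0.81) had the smallest p-values there, all in edgeR. For Lgmn, the change was -0.15 without T4. In the same comparison all 9 macrophage markers (median -0.28) and 6 of 7 tested neutrophil markers (median -0.57) had log2 fold changes below 0, with 0 past the test in edgeR and 0 and 2 at an unadjusted p under 0.05. Erythroid markers went the other way, summing to 471 to 524 CPM in T mice and 553 to 784 in TE mice. B and T cell markers summed to 0.808 to 1.92 CPM in T mice and 0.835 to 63.1 in TE mice, highest in TE4. The part of these cells in these genes was not tested.

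Outside that comparison, the genes with the smallest p-values are given for description, with adjusted p-values from edgeR. In T and C it was Optn, a receptor for ubiquitin-tagged cargo (0.48 ± 0.119, SE, adjusted p = 0.074). In E and C they were the proton pump gene Atp6v1g1 (-0.30, adjusted p = 0.154), the protease gene Ctsk (0.80, adjusted p = 0.168) and Flcn, a regulator of the kinase mTOR at the lysosome (0.33, adjusted p = 0.176). In TE and E they were Nrbf2, a subunit of the Beclin 1 complex (-0.32, adjusted p = 0.123), the cholesterol exporter gene Npc1 (-0.37, adjusted p = 0.152) and Ctsk (-0.77, adjusted p = 0.257). Of 5 tendon and fibroblast markers, 2 passed the test as higher in E than C mice and 2 as lower in TE than E mice, the directions of Ctsk. Scx, another of the 5, went the other way in both, at 2.40 to 3.73 CPM in C, 1.87 to 2.62 in E and 2.26 to 3.55 in TE mice. The 5 markers summed to 490 to 658 CPM in C mice, 739 to 922 in E mice, 437 to 697 in T mice and 551 to 617 in TE mice. Their part in the level of Ctsk was not tested.

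For the tumor effect over both running states the next gene after Foxo1 and Foxo3 was Bcl2l13, a receptor for mitochondria (0.15, adjusted p = 0.0761). For the effect of running they were Pink1, a kinase that marks damaged mitochondria (-0.19, adjusted p = 0.273), Gabarap (-0.13, adjusted p = 0.332) and the protective protein gene Ctsa (-0.11, adjusted p = 0.35). For the interaction they were Ctsk (-1.22, adjusted p = 0.42), Atg5, which is needed for ATG8 conjugation (0.37, adjusted p = 0.438), and Nrbf2 (-0.32, adjusted p = 0.443).

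Across the 16 libraries the 10 genes varied together only in part. Of 45 pairs, 35 had a positive Pearson's r of log2 CPM and 10 a negative one, with a median of 0.23. Map1lc3b and Tfeb had the highest value (r = 0.78, Spearman's rho = 0.75, permutation test with 100000 resamples, adjusted p = 0.0139 and 0.0472 over the 45 pairs). It was r = 0.72 without the 2 libraries farthest from the median, and r = 0.60 for deviations from the group means.

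Map1lc3b also varied with Bnip3 (r = 0.76, rho = 0.62, permutation test, adjusted p = 0.0139 and 0.0949) and with Becn1 (r = 0.71, rho = 0.61, permutation test, adjusted p = 0.0294 and 0.0949), so these 2 pairs passed with Pearson's r only. Without the 2 farthest libraries r was 0.47 for Bnip3 and 0.59 for Becn1, and for deviations from the group means it was 0.63 and 0.67. On the log2(FPKM + 1) scale, 0 of the 45 pairs passed. Map1lc3a, the most abundant ATG8 gene, had r = 0.12 with Map1lc3b, and the lowest value of all was -0.35, between Sqstm1 and Ctsl (rho = -0.02, and r = 0.08 without the 2 farthest libraries).

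**Figure D5:**
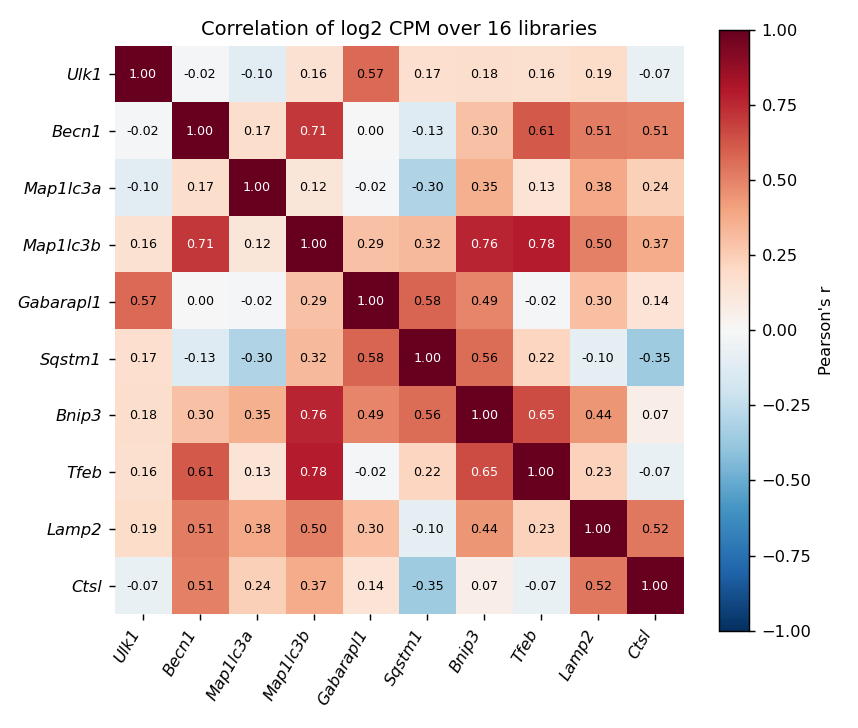
Pearson's r of log2 CPM between the 10 genes over 16 libraries, with genes on both axes and r printed in each cell and shown by color from -1 to 1. The highest values off the diagonal are those of Map1lc3b with Tfeb (0.78), Bnip3 (0.76) and Becn1 (0.71).

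The 2 tested genes whose log2 CPM was most like that of each gene over the 16 libraries are given as a description, since they are the highest over all other tested genes and share library and depth. They were Gtf3c4 (r = 0.92) and Mdm2 (0.85) for Ulk1, Snx5 (0.83) and Ssr4 (0.79) for Becn1, and Zpr1 (0.91) and Afg3l1 (0.85) for Tfeb. Of the ATG8 genes, Map1lc3a was nearest to Lcn2 and Rpl22l1 (both 0.90), Map1lc3b to Faf1 (0.85) and Pcbp2 (0.84), and Gabarapl1 to Gramd3 (0.85) and Anapc2 (0.83). Bnip3 was nearest to Psmd1 (0.89) and Psmd2 (0.88), which encode subunits of the proteasome, and Sqstm1 to Tubb4b (0.87) and Asb5 (0.86). Lamp2 was nearest to Tgfbrap1 (0.87) and Hmcn2 (0.84), and Ctsl to Myl12a (0.80) and Ppp1r1a (0.79).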

How the data were processed

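RNA sequencing covered the gastrocnemius of 16 mice, with groups and replicate numbers taken from the labels, which give 1 batch number for all libraries. The authors trimmed reads with fastp 0.20.1, aligned them to GRCm39 with HISAT2 2.1.0 and deposited counts per gene from HTSeq 0.11.2, without normalization (versions from the submitters' processing notes). The authors also deposited FPKM values, which followed from the counts, one length per gene and the library total (largest relative deviation 6.71e-10 over 14830 genes with counts in every library). The annotation release and strand setting are not given in the sources used here. The sources differ on the version of the library kit. The tables held 0 columns of other samples.

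Counts were tested with edgeR 4.0.16 in R 4.3.3 (filterByExpr, TMM, glmQLFit and glmQLFTest, 1 coefficient per group, all 16 libraries, two-sided, Benjamini-Hochberg adjustment over 14749 genes in each of 7 comparisons). A gene passed at an adjusted p under 0.05, and a differentially expressed gene also needed a fold change above 2 or below 0.5. Intervals are 95% intervals of the fit, and log2 CPM used a prior count of 2. Correlations were tested by permutation with 100000 resamples (scipy 1.17.1). Per-library totals of 35628211 to 37635741 give the depth, and PCR copies cannot be told from molecules in these counts.

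The 10 genes and the gene lists were chosen with earlier results of these data known. Of the pathway lists, genes past the test were named, and the 3 with the smallest p where fewer than 5 passed. The 2 tested genes nearest in r were named for each of the 10 genes. Alternatives were DESeq2 1.42.0, its size factors, no filter, limma 3.58.1 voom with sample weights, limma on log2(FPKM + 1) or log2(FPKM + 0.1) of genes with a mean FPKM of at least 0.1, a robust fit, the unadjusted p, a fit restricted to the compared groups, a replicate block and each library left out. The fold changes of named pathway genes under these alternatives were added after the data were seen. Positions of genes are those of GENCODE for GRCm39, which may not be the release used for counting. Figures were drawn with matplotlib 3.10.9. No sequences are shown, because none of the 10 genes passed the test.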

Additional observations from a re-analysis of the deposited data

Results flagged for a closer look

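Of 48 tests for a value far from the others of its group (10 genes and 2 FoxO genes in 4 groups of 4 mice), 1 passed Dixon's critical value, where chance gives about 1 in 20. It was Sqstm1 in T4, at 83.9 FPKM, while the other T mice measured 120.1 to 128 FPKM. The gap to the nearest of them was 0.831 of the range of the group. The same library had the highest Ctsl of all 16 (39.1 FPKM), and Myh3 at 71.5 CPM against 1.36 to 7.60 CPM elsewhere. The cause of these values was not tested.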

How the results depend on the processing

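Of 1052 values recomputed for 55 results (counts past the test, correlations, levels and the fold changes of genes with a small p), 970 were scored as the same and 0 as reversed. For a fold change, the same meant the same direction and the same side of the threshold. For a count past the test it meant an equal count, or 2 counts above 0 within 1.5-fold of each other. A count could not be scored as reversed. Such counts made up 182 (the 10 genes) and 150 (pathway genes) of the 970. These 970 include all 146 recomputed values of the 6 fold changes of Ulk1, Tfeb and Map1lc3b with an unadjusted p under 0.05. Among the small fold changes outside the 55 results, direction did change, as for Ulk1 and Sqstm1 in TE and T without TE4. The adjusted test called 0 of the 10 genes in every comparison under every alternative, with 0 for each single library left out, and at an unadjusted p under 0.05 the counts were 1 in T and C, 1 in E and C, 2 in the tumor effect and 2 in the effect of running. Those unadjusted counts moved with single libraries, from 1 to 4 (without T4) in T and C, 0 (without C1, C2, E1 or E3) to 1 in E and C, 0 (without TE2, and 1 without T1 or TE3) to 4 (without C1 or E3) in the tumor effect, and 0 (without C1, C2, E1, E2, T1 or TE1) to 3 (without T4) in the effect of running. At the highest counts, the share of all genes with such a p was 13.6% in T and C without T4. It was 14.6% and 12.8% in the tumor effect without C1 and E3, and 9.9% in the effect of running without T4. Where the count was 0, it was 10.1% to 14.4% in E and C, 13.5% in the tumor effect and 8.54% to 11.1% in the effect of running. In TE and E the count of 0 became 1 without TE1 (9.41% of all genes in that fit). On either FPKM scale the counts were 0 in the tumor effect and the effect of running. The median change of all genes moved most on the log2(FPKM + 0.1) scale, by -0.048 (log2) in TE and E, -0.038 in the tumor effect and 0.037 in E and C. These shifts are not small beside the median changes of the 10 genes.

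Pathway genes past the test depended on the setting, and the cause was not tested. In T and C the 2 became 21 at an unadjusted p, 0 with a 2-fold threshold, 4 with DESeq2, 0 on either FPKM scale, 0 with only the groups compared, and 0 to 4 with single libraries left out (0 without C1, C2, C4, T1 or T3, 1 without C3, 4 without T2). In the tumor effect the 2 became 22 at an unadjusted p (13.2%, against 14.2% of all tested genes), 0 with a 2-fold threshold, 4 with DESeq2 (2.40%, against 3.00%) and 1 on either FPKM scale, and 1 to 3 with single libraries left out (1 without any single C mouse, E1, E2, E4, T1, TE3 or TE4, and 3 without T3). At an unadjusted p there were 8 in TE and T, 16 in E and C, 9 in TE and E, 16 in the effect of running and 15 in the interaction. DESeq2 called 2 in TE and E (1.20%, against 1.19% of all genes). The fit of only the groups compared called 1 in E and C (0.599%, against 1.29%) and 1 in TE and E (0.599%, against 0.676%). For the highest counts with single libraries left out, the shares were 2.40% against 1.70% in T and C without T2. In the tumor effect without T3 they were 1.80% against 1.66%. The correlated pairs fell from 3 to 0 on the log2(FPKM + 1) scale.

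With the replicate number as a block, 0 of the 10 genes passed in each comparison and 2 pathway genes passed in T and C and in the tumor effect. The numbers did not pair the mice, since same-numbered mice of different groups correlated between -0.24 and 0.21 (24 pairs) and 2 of 16 libraries were closest to their own number. The block changed no call of the 10 genes or the pathway genes by the adjusted p. Over all tested genes it moved the count from 13 to 25 in E and C. Over all tested genes, DESeq2 called 423 where edgeR called 100 in T and C, 7 and 0 in TE and T, 252 and 13 in E and C, and 179 and 34 in TE and E. The 10 genes had at least 1567 counts in each library, so the spread between 4 mice, more than depth, set the width of the intervals.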
